A study of Mus musculus with 2 samples.

Results

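The transcripts described here are 1378 annotated long non-coding RNA (lncRNA) transcripts of the mouse spleen that consist of 1 exon. They were selected on their measured abundance from a table of 15172 annotated transcripts. A member had 1 exon in that table, had a gene name that did not end in "os", the ending given to genes opposite another gene, and reached at least 0.5 FPKM in at least 1 of 2 libraries. FPKM counts sequenced fragments per kilobase of transcript, scaled to the size of the library, so it is a level per length. Of 3728 transcripts with 1 exon and no such name, 1378 passed this filter, and 1175 were listed at 0 in both libraries. The members belong to 1366 gene names, and 9 of them were listed at 0 in 1 library.

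One library came from spleen cells of mice with collagen-induced arthritis (CIA), a joint inflammation provoked by immunization with type II collagen. The other came from spleen cells of healthy mice that received no treatment. Day 40 stands in both titles, but the CIA treatment label puts sacrifice at day 42 from the first immunization. Strain, sex, age and the number of mice behind each library are not stated in the labels. With 1 library per group, every difference below compares these 2 libraries and has no replicate check. Neither table used here holds messenger RNA levels, so the cell makeup of the libraries was not analysed here, and fewer cells of a type and less RNA per cell cannot be told apart.

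Genes for lncRNAs with a single exon need no splicing, and they range from long nuclear RNAs such as Malat1, Neat1 and Kcnq1ot1 to short clusters of cDNA ends with no known role. Many carry the GENCODE class TEC, which is given to unspliced clusters of transcript ends that await experimental testing. RNA of this kind inside an intron cannot easily be separated from unspliced precursor RNA of the surrounding gene, because both hold the same bases. A polyadenylated RNA usually carries a hexamer, most often AATAAA or its variant ATTAAA, shortly before its 3′ end, where the RNA is cut and the poly(A) tail is added.

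The last 60 bases of 12 members are printed 5′ to 3′ to show 3′ ends with and without such a hexamer, in capitals where it occurs. They were read from the GENCODE M21 transcript sequences (GRCm38). The first 4 lines hold AATAAA, the next 2 hold ATTAAA, and the other 6 hold neither within their last 50 bases.
Malat1 (chr19:5795690-5795749, minus strand): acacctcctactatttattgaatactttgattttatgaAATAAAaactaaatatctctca
AU020206 (chr7:75769038-75769097, minus strand): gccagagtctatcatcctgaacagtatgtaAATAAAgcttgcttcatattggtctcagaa
2900097C17Rik (chr2:156388065-156388124, minus strand): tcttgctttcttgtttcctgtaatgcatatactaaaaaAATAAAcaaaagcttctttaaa
BC043934 (chr9:96435783-96435842, minus strand): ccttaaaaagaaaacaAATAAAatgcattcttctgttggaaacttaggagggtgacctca
Gm10451 (chr12:76450456-76450515, plus strand): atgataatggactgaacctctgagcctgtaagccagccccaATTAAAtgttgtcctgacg
Gm44258 (chr6:137431546-137431605, plus strand): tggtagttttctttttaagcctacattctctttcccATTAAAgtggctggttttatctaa
Gm43541 (chr5:122567524-122567583, minus strand): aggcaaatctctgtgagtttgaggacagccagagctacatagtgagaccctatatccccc
Gm45221 (chr7:90188139-90188198, plus strand): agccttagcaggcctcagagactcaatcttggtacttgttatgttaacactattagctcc
Gm37589 (chr3:60539685-60539744, plus strand): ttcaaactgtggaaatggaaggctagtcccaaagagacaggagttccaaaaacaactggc
Gm42763 (chr9:110545238-110545297, plus strand): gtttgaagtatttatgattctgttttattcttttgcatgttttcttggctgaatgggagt
Gm42449 (chr3:131138983-131139042, plus strand): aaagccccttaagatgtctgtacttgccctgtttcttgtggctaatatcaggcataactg
Gm37474 (chr9:32525145-32525204, minus strand): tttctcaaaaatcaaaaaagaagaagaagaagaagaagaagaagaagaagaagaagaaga

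The first 3 lines are among the most abundant members, and each lies farther than 5 kb from a protein-coding gene. In Malat1 and 2900097C17Rik, 16 bases follow the hexamer, and in AU020206 24 bases do. The 6 ends without a hexamer all belong to members inside an intron on the strand of the host gene. Gm44258, printed with ATTAAA, also lies in such an intron. The printed members were chosen to show both kinds of end, so this split gives no rate. Over all members, 20.5% of the 751 in such introns and 47.7% of the 627 others held a hexamer. The end of Gm37474 runs into a repeat of the bases gaa.

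Gm43541, the gene of the transcript in the series title, has 581 bases at chr5:122567524-122568104 on the minus strand. Of its words of 30 bases, read on either strand, 14.3% also occurred in a GENCODE transcript of a gene elsewhere, and 9.78% occurred in at least 10 such genes. Over all members the median of the first share was 0.554%, and 503 members shared no word with a gene elsewhere. The share of Gm43541 is thus above this median. In the CIA library its level was 12.3 FPKM, against 1.39 in the healthy one, and it ranked 4 of 1378 by the log2 ratio.

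The members were long for lncRNAs of this table. Their median length was 2026 bases, with the middle 50% between 1241 and 2938. The 1678 transcripts with several exons that passed the same filter had a median spliced length of 896 bases, and all 3728 single-exon transcripts had 1872. The longest members were Kcnq1ot1, the imprinted antisense RNA of the Kcnq1 locus, at 93092 bases, 9330162G02Rik at 30942 and Neat1, the scaffold of nuclear paraspeckles, at 20771. The shortest were Gm37646 at 111 bases, Gm13583 at 123 and Gm12238 at 124. The median GC content was 43.1% for the members and 48.2% for the transcripts with several exons.

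Their levels were low, and the filter fixes the lower end. The median of the mean FPKM of both libraries was 1.68, with the middle 50% between 0.816 and 3.49, against a median of 0.956 for transcripts with several exons. Of 1378 members, 1172 lay below 5 FPKM and 11 at 20 FPKM or more. Malat1, a nuclear RNA of speckles, stood at 2184 FPKM in CIA and at 1798 FPKM in healthy spleen cells. It held 22.3% of the summed FPKM of all annotated transcripts past the filter in the CIA library and 21.6% in the healthy one. All members together held 66.9% and 66.1%, and without Malat1 44.6% and 44.5%. The share of lncRNA signal in single-exon transcripts was thus close to equal in the libraries.

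After Malat1, the level fell steeply. Gm28967, next in order and over an exon of Ncapd2 on the same strand, stood at 117 against 106 FPKM. The CIA value is given first here and below. AU020206 stood at 61.9 against 62.6 FPKM. Gm20632 and Gm20628, both opposite to histone genes, stood at 51.0 against 63.3 and at 35.97 against 35.7 FPKM. Of their words of 30 bases, 47.5% and 15.3% occur in genes elsewhere. 2900097C17Rik stood at 31.2 against 36.8 FPKM, and 45.1% of its words do so. BE692007, opposite to an exon of Ms4a6c, stood at 30.6 against 23.8 FPKM. Gm45221 and Gm45223, both in introns of Picalm, a clathrin assembly gene, stood at 30.4 in each library and at 22.7 against 27.0 FPKM. Gm37589, in an intron of the splicing regulator gene Mbnl1, stood at 26.2 against 22.4 FPKM. All 10 of these members lay within 2-fold between the libraries.

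Members just inside the filter were Gm43136, at 0.272 against 0.5001 FPKM, Gm19409, at 0.382 against 0.501, and Gm43423, at 0.502 against 0.371. Just outside it were Gm9889, at 0.4998 against 0.141 FPKM, Gm45292, at 0.499 against 0.266, and Gm38245, at 0.499 against 0.483. The filter reads the higher library, so 1126 members passed it in both, 192 in the CIA library alone and 60 in the healthy library alone.

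Most members lay inside protein-coding genes. Of 1378, 1111 lay at least in part within the span of a coding gene of GENCODE M21, and 236 overlapped a coding gene's exon. Members in an intron on the strand of the host gene were the largest class, with 751 members or 54.5%. The same class held 38.8% of all single-exon transcripts and 4.77% of the transcripts with several exons. Overlap with an exon on the opposite strand was found for 195 members or 14.2%, against 45.8% of transcripts with several exons. A further 124 members lay in an intron on the opposite strand and 41 over an exon on the same strand. Outside coding genes, 61 lay within 5 kb after a gene end on the same strand, 87 elsewhere within 5 kb of a gene, and 119 farther away.

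The share that passed the filter also differed by position. Of single-exon transcripts in an intron on the same strand, 51.9% passed it, and of those farther than 5 kb from any coding gene, 11.5% did. By GENCODE class, 1025 members or 74.4% were TEC, 100 antisense, 93 lincRNA, 88 sense intronic and 42 retained intron. Of the TEC members 657 lay in an intron on the strand of the host, and 5 transcripts with several exons were TEC. The single-exon set is thus, by count, mostly an intronic and unspliced set.

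The 3′ ends differed between positions. AATAAA or ATTAAA, searched on the transcript strand within the last 50 bases, was found in 453 members or 32.9%, AATAAA coming first in the search. It was found in 33.8% of all single-exon transcripts and 44.2% of the transcripts with several exons. Among the 751 members in an intron on the same strand, 154 or 20.5% held it, and among the other 627 members 299 or 47.7% did. Within the TEC class alone, the shares were 19.03% of 657 and 41.0% of 368. The lincRNA members, most of them outside coding genes, held it in 60.2%.

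**Figure D1:**
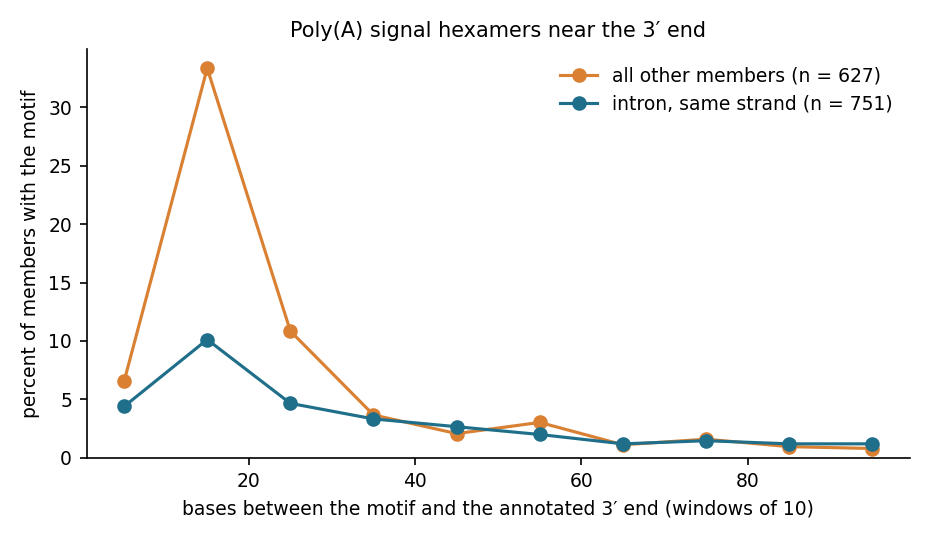
Percent of members with AATAAA or ATTAAA by the number of bases between the hexamer and the annotated 3′ end, in windows of 10 bases, for the 751 members in an intron on the same strand and the 627 others. With 10 to 19 bases after the hexamer the others reach 33.3% and the intronic members 10.1%, and both lines lie between 0.797% and 3.03% beyond 50 bases.

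The distance profile shows where these hexamers sit. With 10 to 19 bases between the hexamer and the end, 33.3% of the other members and 10.1% of the intronic members held it. With 90 to 99 bases, the shares were 0.797% and 1.20%. The intronic members therefore had the same position of the peak at a lower height. A match is only these letters in this window, and the genomic bases after the ends were not analysed here.

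Members were spread unevenly over chromosomes. Chromosomes 1 to 9 held 1218 or 88.4% of them, chromosomes 10 to 19 held 156 or 11.3%, and X and Y held 4. All single-exon transcripts of the table had nearly the same split, with 84.8% on chromosomes 1 to 9. Of protein-coding genes 54.8% lie there, and of transcripts with several exons past the filter 59.3%. The highest counts were 232 on chromosome 1, 225 on chromosome 5 and 184 on chromosome 3. By contrast, chromosome 4 had 14, chromosome 11 had 10 and chromosome 16 had 4. Per 100 coding genes this is 19.2 on chromosome 1, 1.06 on chromosome 4 and 0.610 on chromosome 11. The uneven count was thus present in the annotated set before the filter on FPKM.

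The ratio of the libraries was taken as log2 of the CIA FPKM over the healthy FPKM after adding 0.1 FPKM to each, which understates ratios at low levels. Since the same FPKM values chose the members, ratios are given as a description. In the CIA library 172 of 1378 members, or 12.5%, were higher by 2-fold or more. Over all 3068 annotated transcripts past the filter, 15.7% were, and over those with several exons 18.2%. At least 2-fold lower were 46 members or 3.34%, against 6.13% of all annotated and 8.46% of those with several exons. Both shares of the members lay below the background. The members' median log2 ratio was 0.28, near the 0.30 of all annotated transcripts, and 989 of 1378 lay above 0. Centred on the annotated median, 81 members were 2-fold higher and 74 lower, against 9.52% and 8.93% of all annotated transcripts. The members are part of that set and have nearly its median, so centring brings their counts near even by construction.

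Of the 192 members that passed the filter in the CIA library alone, 101 were 2-fold higher, and of the 60 that passed in the healthy library alone, 32 were 2-fold lower. These had to differ by how they were chosen. Among the 1126 that passed in both, 71 were higher and 14 lower, with an SD of the log2 ratio of 0.51. The shares over all annotated transcripts that passed in both were not computed, so these counts have no background beside them.

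**Figure D2:**
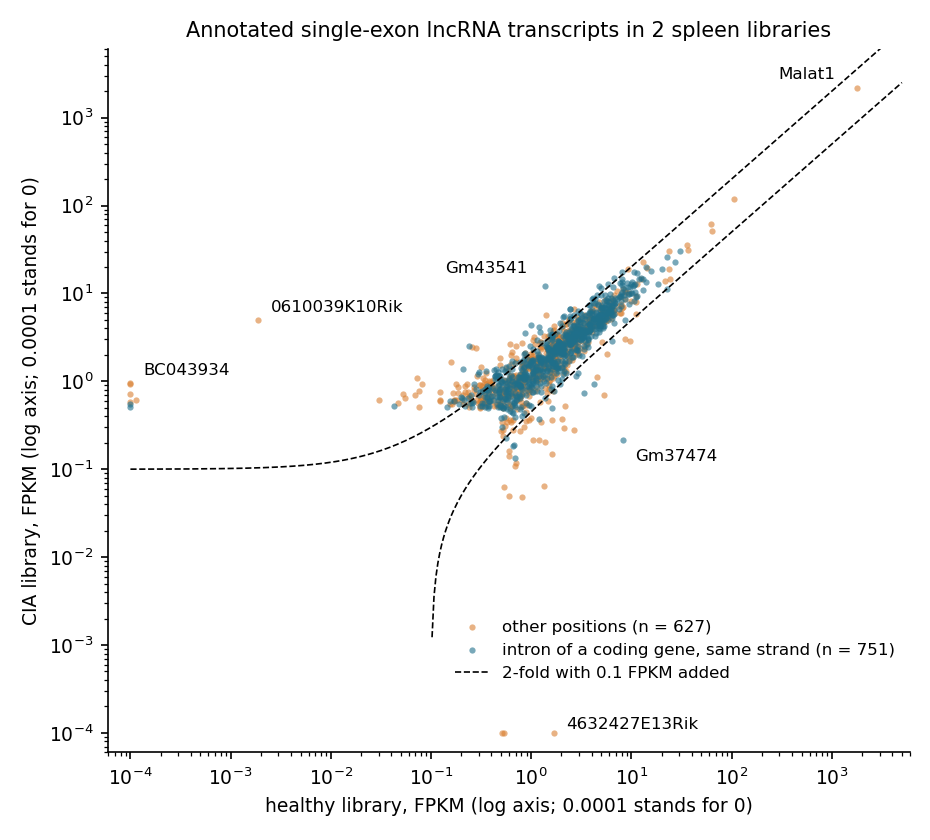
FPKM of each of the 1378 members in the healthy library (x axis) and the CIA library (y axis), both on log axes with 0.0001 standing for 0, coloured by position, with dashed lines at 2-fold after adding 0.1 FPKM. Gm43541 at 12.3 against 1.39 FPKM lies above the band, and Gm37474 at 0.213 against 8.24 FPKM below it.

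The spread of the ratio was smaller for single-exon than for multi-exon transcripts in every band of abundance, as a description. Over all members the SD of the log2 ratio was 0.75, and over transcripts with several exons it was 1.27. Below 1 FPKM the SDs were 0.95 and 1.39, at 2 to 5 FPKM 0.65 and 1.19, and at 5 to 20 FPKM 0.49 and 1.14. At 20 FPKM or more, none of the 11 members was 2-fold apart. Length went largely the same way. Of members below 500 bases 29.4% were 2-fold apart in either direction, at 500 to 1000 bases 32.9%, and at 4000 bases or more 7.38%. The longest band also had the higher median level, 2.13 FPKM against 1.31 at 500 to 1000 bases. Members with other listed transcripts of their gene had an SD of 1.17, against 0.69 for a gene's single transcript. Whether reads split among isoforms widen the multi-exon spread was not tested.

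**Figure D3:**
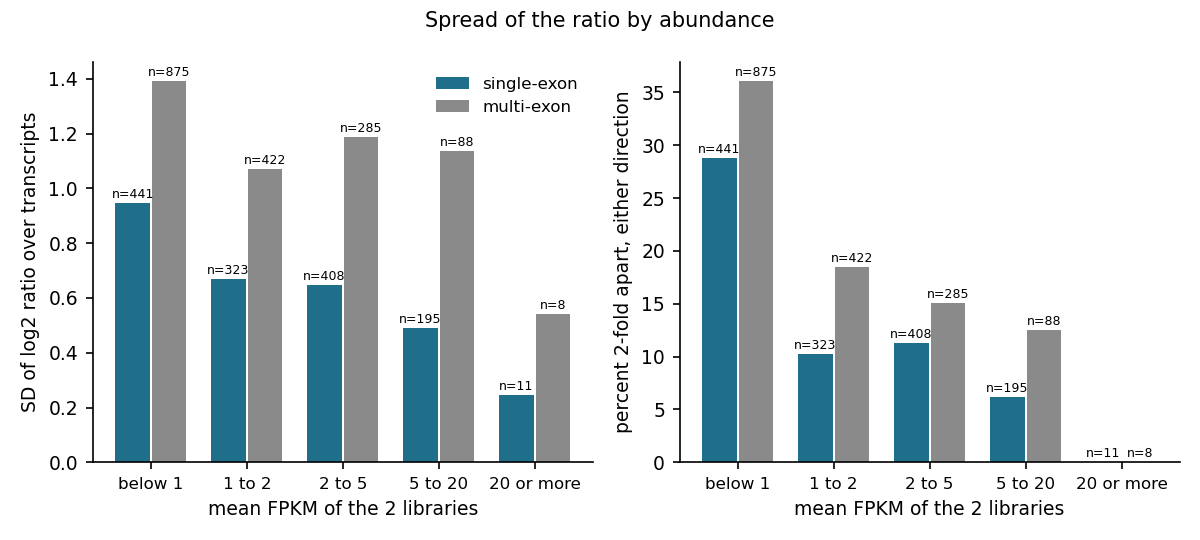
Left, SD of the log2 ratio over transcripts, and right, percent of transcripts at least 2-fold apart in either direction, by mean FPKM of the libraries, for single-exon members and multi-exon transcripts, with n above each bar. The single-exon bar is the lower one in every band up to 20 FPKM, and both are at 0% at 20 FPKM or more on the right.

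By position, the members in an intron on the same strand had the narrowest spread, with an SD of 0.60. Of these 751, 77 or 10.3% were 2-fold higher and 13 or 1.73% lower, while of the other 627, 95 or 15.2% were higher and 33 or 5.26% lower, with an SD of 0.89. Members farther than 5 kb from a coding gene had the highest share of higher values, 26 of 119 or 21.8%, with a median log2 ratio of 0.46. Their mean levels were lower, with a median of 1.28 FPKM against 2.06 FPKM for the intronic class. Below 1 FPKM, 18 of 48 of the far members were 2-fold higher, against 38 of 197 intronic ones, and at 1 FPKM or more the counts were 8 of 71 and 39 of 554. Members that passed the filter in the CIA library alone, and so had to be higher there, were not set apart by position. The median was 0.52 for the 61 members within 5 kb after a gene on the same strand. Whether the difference between positions comes with abundance was not tested.

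**Figure D4:**
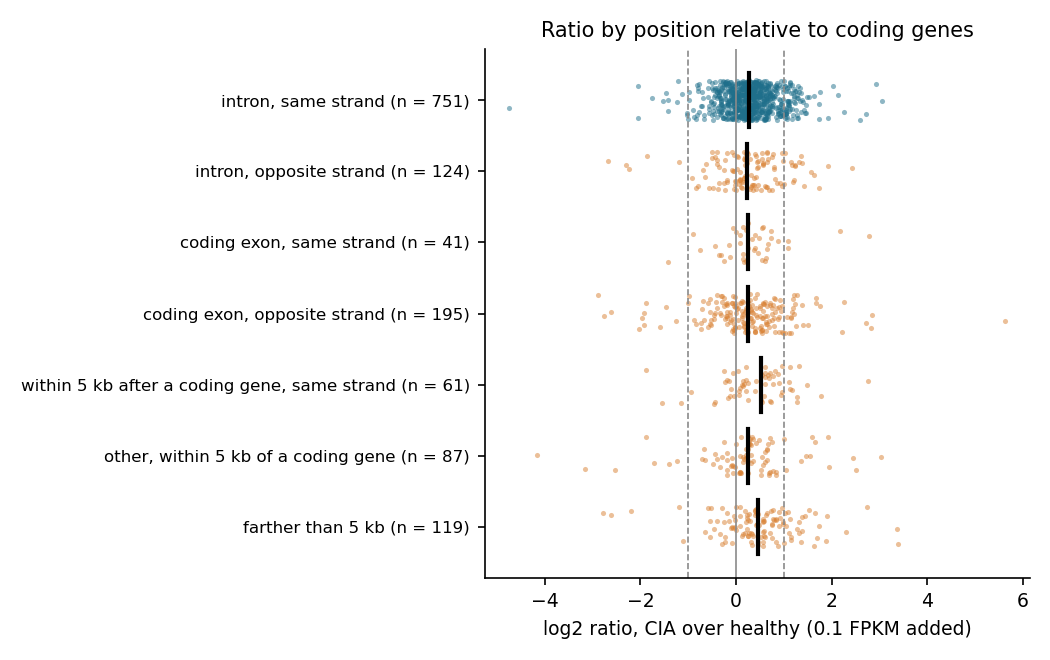
Log2 ratio of each member by position relative to protein-coding genes, with the black bar at the class median and dashed lines at 2-fold in either direction. Medians lie between 0.24 and 0.52, and the same-strand intronic class is the most compact of the 7, with an SD of 0.60.

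Distance from the host's exons gave no steady order. Of 751 members in an intron on the same strand, the 265 at 1 to 5 kb from the nearest exon had a median log2 ratio of 0.16, and 6.42% were 2-fold apart. The 106 at 20 kb or more had a median of 0.48, and 23.6% were 2-fold apart. The 190 within 1 kb had 0.25 and 12.6%, and the 190 at 5 to 20 kb had 0.37 and 12.6%.

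Among members of at least 1 FPKM and above 0 in both libraries, Gm43541 had the second highest ratio, at 8.34-fold after the 0.1 FPKM were added. It lies in an intron of Ift81, a gene of transport within cilia, 174 bases from the nearest exon. Gm42763 followed, at 2.52 against 0.242 FPKM, 3 bases from an exon of the histone methyltransferase gene Setd2. Gm42449, in an intron of Lef1, a transcription factor gene of T cells, stood at 4.38 against 0.996 FPKM. Gm45294, in an intron of the RNA demethylase gene Fto, stood at 3.57 against 0.863 FPKM, while 1 assembled transcript that overlaps it stood at 2.59 against 2.65 FPKM. These 4 lie on the strand of their hosts, and their 3′ ends lack AATAAA and ATTAAA in the last 50 bases.

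The other members of highest ratio were less abundant. Gm46218, opposite to an exon of Echdc1, stood at 2.47 against 0.255 FPKM, and AV039307, opposite to Ubr1, a ubiquitin ligase gene, at 2.39 against 0.279. Gm16248 stood at 1.65 against 0.160 FPKM, Gm44258 in an intron of the phosphatase gene Ptpro at 1.37 against 0.209, and Gm45809 over an exon of the kinase gene Nek1 at 1.10 against 0.0731. All 5 stood below 0.3 FPKM in the healthy library, where the added 0.1 FPKM weighs most.

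The lowest ratio belonged to Gm37474, at 0.213 against 8.24 FPKM. It lies in an intron of Fli1, an ETS transcription factor gene of blood cells, 14233 bases from the nearest exon. The 3 other members in Fli1 introns went the opposite way, with Gm38346 at 14.9 against 6.72 FPKM, Gm37082 at 14.4 against 7.998 and Gm38292 at 5.89 against 3.15. Of the words of 30 bases in Gm37474, 6.33% occur in genes elsewhere. Within this host, then, 1 member stood apart from the 3 others, which lay between 0.84 and 1.13 on the log2 scale.

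Other members of low ratio lay in several settings. Gm43413, opposite to an exon of the small GTPase gene Rhof, stood at 0.277 against 2.70 FPKM. Gm26532 stood at 0.292 against 2.15 FPKM and C030034I22Rik at 0.369 against 2.04. Gm42437, opposite to an intron of Larp1b, stood at 0.202 against 1.38 FPKM. Gm10451 stood at 0.150 against 1.63 FPKM, but the 3 transcripts of its gene summed to a log2 ratio of -0.16. 2010007H06Rik stood at 0.0637 against 1.35 FPKM, while an assembled transcript over it went the other way, at 2.56 against 0.465. Gm37646, of 111 bases, stood at 0.744 against 3.37 FPKM, and 74 of its bases match a transcript of Lyrm9 at 96.0% identity.

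Listed at 0 in the healthy library were 6 members, of which BC043934 had the highest CIA value, 0.956 FPKM. 2610206C17Rik stood there at 0.938 FPKM, Gm10766 at 0.724, Gm44948 at 0.577 and 4930553I21Rik at 0.557. Listed at 0 in the CIA library were 4632427E13Rik, at 1.69 FPKM in the healthy library, Gm13583 at 0.539 and Gm45912 at 0.510. No fold is given for these members. Apart from 4632427E13Rik, all named here lie below 1 FPKM in the library that holds them.

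Ratios of members in the same host gene spread less than the ratios of all these members together. The 751 members in introns on the same strand lie in 512 hosts, of which 127 hold at least 2 members. A set of overlapping host genes was counted as 1 host of its own. Over the 366 members of these hosts, the SD of the log2 ratio was 0.58, and within hosts it was 0.50. Without Gm37474 and Phxr4, chosen after their values were seen, these were 0.50 and 0.37. Members of 1 host lie in the same gene and are not taken as independent of each other. Whether their signal comes from its precursor RNA was not tested. In 49 hosts with at least 3 members, every member lay above 0 in 19 hosts and every member below 0 in 4. Over all members, 989 of 1378 lay above 0, so hosts wholly above 0 can arise without a direction of their own.

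**Figure D5:**
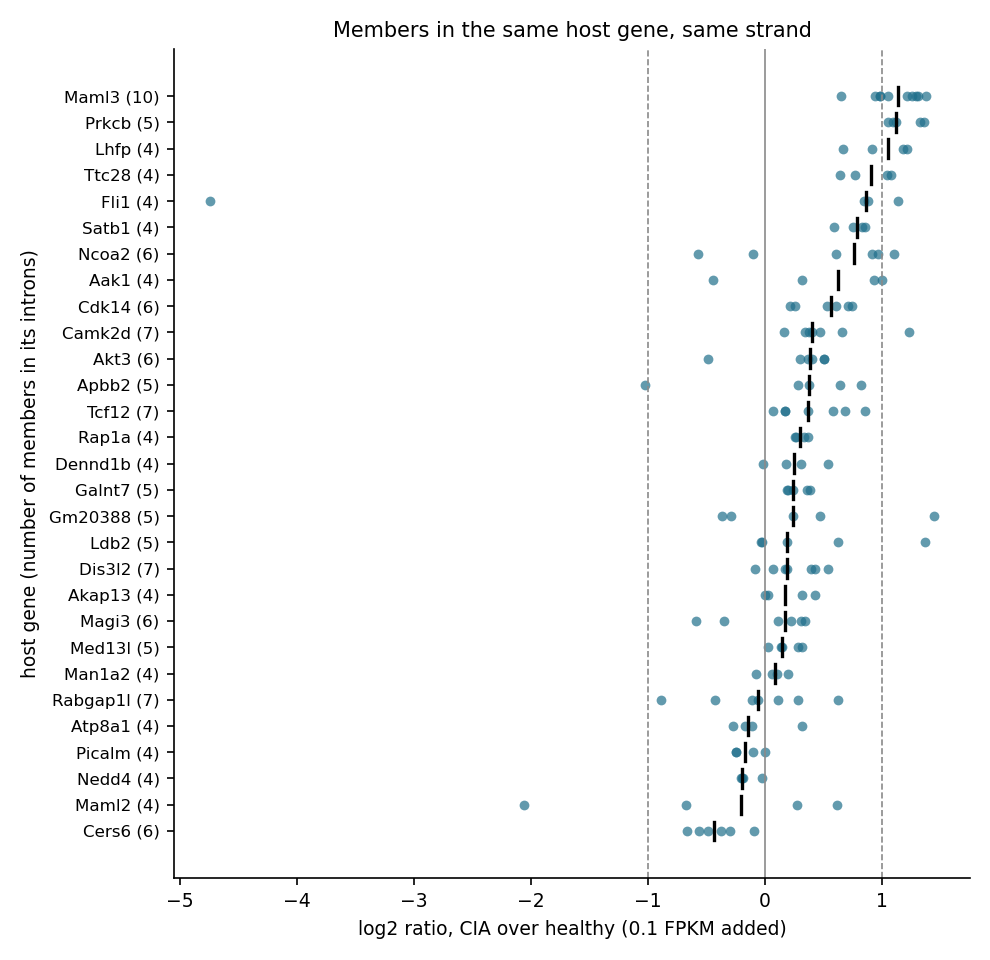
Log2 ratio of each member in the introns of host genes that hold at least 4 members on the same strand, sorted by the host median (black bar), with the number of members in brackets and dashed lines at 2-fold. All 10 members in Maml3 lie between 0.65 and 1.38, all 6 in Cers6 lie below 0, and in Fli1 Gm37474 at -4.74 stands apart from 3 others.

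Maml3, a coactivator gene of Notch signalling, held the most members, 10. Their levels ranged from 0.599 to 6.001 FPKM in CIA and from 0.169 to 3.07 FPKM in healthy cells. Each of the 10 stood higher in CIA, 6 of them by 2-fold, against 15.7% of all annotated transcripts. Their median log2 ratio was 1.13. Examples were 5430420F09Rik at 6.001 against 3.07 FPKM, Gm37465 at 3.81 against 1.53 and C130089K02Rik, of 6960 bases, at 3.49 against 1.63. The 36 assembled transcripts in Maml3 introns, from the other table, had a median of 0.95. In Cdk14, by contrast, the 6 members had a median of 0.57 and 41 assembled transcripts one of -0.09. Over 317 hosts with at least 1 such transcript, host medians of members and of assembled transcripts had a Pearson r of 0.26. Assembled transcripts on either strand were taken. Sets of overlapping genes were counted as separate hosts, and those that include Fgfr2 share the same 23 assembled transcripts, so the 317 are not all distinct.

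Prkcb, the gene of protein kinase C beta, which acts in B cell receptor signalling, held 5 members. All 5 were 2-fold higher, against 15.7% of all annotated transcripts. Gm45191 stood at 17.4 against 8.10 FPKM, Gm44745 at 12.7 against 5.80 and Gm44664 at 12.2 against 4.72. Gm44663 stood at 5.36 against 2.08 FPKM and Gm44746 at 5.12 against 2.42. Their log2 ratios lay between 1.05 and 1.36, a range of less than the SD over all members. The median of the 5 was 1.12, which falls below 2-fold once the annotated median of 0.30 is taken off. In Itpkb, an inositol phosphate kinase gene of lymphocytes, Gm37390 stood at 5.57 against 2.14 FPKM, Gm37033 at 8.72 against 4.02 and Gm36933 at 9.68 against 4.99. In Lhfp, the 4 members had log2 ratios from 0.67 to 1.21, and in Ttc28 from 0.64 to 1.08, while 2 assembled transcripts in Ttc28 introns had a median of -1.60.

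Camk2d, a calcium/calmodulin kinase gene, held 7 members, all above 0, with a median log2 ratio of 0.40 and a range from 0.17 to 1.23. Tcf12, an E protein gene of lymphocyte development, also held 7, with a median of 0.36 and a range from 0.07 to 0.85. Rabgap1l held 7 as well, but these ranged from -0.88 to 0.63. Shared hosts therefore did not always go with a shared direction.

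Among hosts with at least 3 members, 4 had all of them lower in the CIA library. In Cers6, a ceramide synthase gene, the 6 members had log2 ratios from -0.66 to -0.09, among them Gm38377 at 1.41 against 2.01 FPKM and Gm38236 at 0.751 against 1.25. In Picalm, the 4 members had ratios from -0.25 to -0.0016, at 11.0 to 30.4 FPKM in the CIA library. In Nedd4, a ubiquitin ligase gene, the 4 members lay between -0.21 and -0.03, and in Zranb3 the 3 members between -0.83 and -0.01. None of these 17 members was 2-fold lower, and several lay close to 0. The lowest CIA value in Zranb3, 0.408 FPKM, lay below the filter, so that member passed in the healthy library alone and had to be lower in CIA. Assembled transcripts in the introns of these hosts did not go the same way. Their median was 0.09 in Cers6 and 0.30 in Nedd4, from 1 transcript each, and 0.22 in Zranb3, from 6. Picalm held none.

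Host genes were also grouped by lists of cell types and functions. Within or across 7 listed T cell genes lay 18 members. Of these, 7 or 38.9% were higher by 2-fold, against 15.7% of all annotated transcripts, and 0 were lower, against 6.13%. Their median log2 ratio was 0.88, against 0.28 for all members. All 18 lay above the members' median, and 6 of them lie in Satb1. Of the 7 that were 2-fold higher, Gm32999, Gm37856, Gm37469, Gm43352 and Gm37766 passed the filter in the CIA library alone. Among all 192 members that passed there alone, 101 were 2-fold higher and 0 lower. Gm42809, opposite to an exon of Il6ra and below 2-fold, also passed in the CIA library alone, at 0.856 against 0.402 FPKM. The share of 38.9%, the median of 0.88 and the place of all 18 above the members' median are thus in part fixed by the filter. Opposite to introns of Cd247, the zeta chain gene of the T cell receptor, Gm32999 stood at 0.722 against 0.0523 FPKM, Gm37856 at 1.25 against 0.352 and Gm37469 at 0.935 against 0.354. In Lef1, beside Gm42449, Gm43352 opposite to an exon stood at 0.615 against 0.202 FPKM. In Prkcq, a kinase gene of T cell receptor signalling, Gm37520 stood at 2.97 against 1.05 FPKM, Gm37766 at 1.14 against 0.479 and Gm36932 at 2.51 against 1.39. The 2 members in Ikzf2 had lower ratios, 0.62 for Gm28112 and 0.40 for Gm29112.

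Satb1, the gene of a chromatin organizer of T cells, had 9 members inside it or nearest to it on chromosome 17. The 6 within its span had log2 ratios from 0.59 to 0.90, as in Gm37248 at 13.5 against 7.99 FPKM and C230085N15Rik at 11.9 against 6.52. The 3 others lie 9571, 16949 and 25877 bases from Satb1 on the plus strand. These were Gm37593 at 4.20 against 2.03 FPKM, Gm37266 at 5.05 against 2.40 and Gm37176 at 2.82 against 1.23, all 2-fold higher. Chromosome 17 had the highest median of all chromosomes, 0.79 over 14 members, and without these 9 the other 5 had a median of -0.05.

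In 3 listed B cell genes lay 7 members, with a median of 0.72. Of these, 1 or 14.3% was 2-fold higher, near the 15.7% of all annotated transcripts, and 0 were lower. 4930517J16Rik, opposite to an intron of the B lineage factor gene Pax5, stood at 19.04 against 9.29 FPKM, and Gm37802, opposite to an exon of Ralgps2, at 22.9 against 13.0. A630081D01Rik in Dock10 stood at 7.37 against 3.90 FPKM. The 26 members in 9 kinase and phosphatase genes included 6 or 23.1% that were 2-fold higher, against 15.7% of all annotated transcripts, and 0 lower, against 6.13%. Their median was 0.49. These 6 were the 5 in Prkcb and Gm43005 in Camk2d, at 4.67 against 1.94 FPKM. The myeloid list rested on the 4 members in Fli1, with 1 higher, 1 lower and a median of 0.86.

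Of the remaining lists, chromatin regulators lay near the median of all members and the others below it. In 6 cell cycle genes lay 6 members with a median of -0.41 and none 2-fold apart. Gm45240, opposite to an intron of Mki67, which marks dividing cells, had 5.89 against 11.2 FPKM, and Gm44985, opposite to an exon of the mitotic kinase gene Plk1, at 1.04 against 1.56. The 7 members in RNA processing genes had a median of -0.03, with Gm29361 opposite to Rbm25 at 6.57 against 2.69 FPKM the sole 2-fold higher one. The 13 members in chromatin regulator genes had a median of 0.29, and Gm42763 in Setd2 was the sole one past 2-fold. For the erythroid and platelet list, 2 members in Slc25a37, the iron importer of mitochondria, had -0.59 and -0.07.

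The members in Slc25a37 also have sequences equal to those of other members. Gm31748 (chr14:69284350-69285846, plus strand) and Gm37847 (chr14:69502600-69504096, plus strand) have the same 1497 bases. Gm31748 stood at 1.39 against 2.14 FPKM and Gm37847 at 2.33 against 1.44, so the log2 ratios were -0.59 and 0.66. Their sum was 3.72 against 3.58 FPKM, a log2 ratio of 0.05. Gm20236 and Gm37094, with the same 4540 bases, stood at 13.3 against 14.0 and at 9.69 against 8.40 FPKM. Reads of such a pair cannot be assigned to either, and a ratio of 1 member alone is uncertain.

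Opposite ratios also appeared between transcripts of 1 gene, and whether reads were shared out between these was not tested. 0610039K10Rik, opposite to an exon of Serinc3, has 2 single-exon transcripts that share 951 of 952 bases. The longer stood at 4.94 against 0.0019 FPKM, the highest ratio of all members, and the shorter at 0.700 against 5.36. Their sum was 5.64 against 5.36 FPKM, a log2 ratio of 0.07. 4632427E13Rik had a transcript listed at 0 in the CIA library and another, sharing 3811 bases with it, at 14.7 against 12.4 FPKM. Their sum had a log2 ratio of 0.06.

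Over all members, 134 have other transcripts of the same gene in the table. Of these, 22 were 2-fold higher and 12 lower on their own, and 12 and 4 remained so when the transcripts of the gene were summed. The SD of the log2 ratio was 1.17 for these 134 and 0.69 for the 1244 members that are the gene's single transcript. Phxr4, in an intron of Maml2, stayed lower as a sum, at 1.78 against 4.88 FPKM. With 2 assembled transcripts over it added, the transcript of lower ratio came to 18.4 against 14.1 FPKM, the opposite direction.

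Small RNA genes lie within or across 27 members, and 3 short members are made mostly of them. Gm12238 is shown whole, since all its 124 bases lie in Gm22884, a snoRNA gene on the same strand (chr11:55482706-55482829, plus strand). Gm28872 (chr4:132270056-132270213, plus strand) is shown with the 134 of its 158 bases in capitals that lie across Rnu11, the U11 RNA gene of the minor spliceosome, which is on the opposite strand.
Gm12238: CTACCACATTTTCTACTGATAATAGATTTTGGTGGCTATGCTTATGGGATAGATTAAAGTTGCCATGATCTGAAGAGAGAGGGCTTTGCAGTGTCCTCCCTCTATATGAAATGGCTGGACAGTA
Gm28872: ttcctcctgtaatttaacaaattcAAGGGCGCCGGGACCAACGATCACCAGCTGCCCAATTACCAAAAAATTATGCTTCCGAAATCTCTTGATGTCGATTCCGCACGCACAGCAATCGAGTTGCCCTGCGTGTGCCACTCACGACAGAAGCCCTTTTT
Gm12238 stood at 5.19 against 5.59 FPKM and Gm28872 at 2.88 against 9.74. Gm28967, the second most abundant member, lies with all its 281 bases in the small Cajal body RNA gene Scarna10. As no strand setting is stated for the counting, reads of Rnu11 and Gm28872 cannot be told apart.

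Several longer members overlap microRNA genes, on either strand and by any number of bases. Gm27019, with Mir29b-1, stood at 4.51 against 2.24 FPKM, and Gm37296, with Mir30d, at 4.79 against 2.53. 4833445I07Rik, with Mir191 and Mir425, stood at 1.98 against 1.20 FPKM, and A430106G13Rik, with Mir181a-1 and Mir181b-1, at 1.16 against 1.09. The single-exon form of Dleu2 over Mir16-1 stood at 18.9 against 23.9 FPKM. With 0.1 FPKM added, none of these 5 was 2-fold apart. Gm26532, at 0.292 against 2.15 FPKM, overlaps Mir24-2. Levels of the mature microRNAs were not analysed here.

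In the authors' deposited table, the p was under 0.05 for 23 members or 1.67%, against 1.92% of all annotated transcripts past the filter. The q of the authors' deposited table was under 0.05 for 4 members, or 0.290% against 0.391%. These were Gm43541, C030034I22Rik, Phxr4 and 1810026B05Rik, the last of which stood at 0.519 against 2.17 FPKM. Gm43541 had a p of 2.39e-05 and a q of 0.00167 in the authors' deposited table. The authors' deposited table marked 105 members or 7.62% as significant, against 6.36% of all, with p-values of up to 0.211, and gave a p of 1 to 134 members past 2-fold. These values come from 1 library per group and hold no spread between mice.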

How the data were processed

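RNA of spleen cells from CIA and healthy mice was measured in 1 library each. Per the labels' protocols, TRIzol was used for total RNA and ribosomal RNA was depleted. The submitters' processing notes name StringTie, and aligner, build, strandedness and test were not given in the sources used here. Per the file headers, the authors' tables hold an FPKM per transcript (0.0001 stands for 0), a ratio (fold) with its log2, and a p-value and q-value, which are quoted as deposited. In 2 damaged cells the CIA value of Gm43541 and AI662270 was placed as the number that equals the deposited ratio times the healthy value (relative tolerance 0.0001). The values used here hold no counts, so the depth is unknown.

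Coordinates, exons and sequences came from GENCODE M21 (GRCm38), whose coordinates equalled those of all 15172 transcripts, and 1377 of 1378 members had 1 exon there. Gm10728 had more. Position was the first that applied of exon overlap, intron, 5 kb and farther. Copies were sought with blastn 2.17.0 at 95% identity over at least 50% of the length. Python 3.11.15, numpy 2.4.6, pandas 2.3.3 and matplotlib 3.10.9 were used. The members, the 8 host lists and the rules were chosen with earlier results of these data known. Named were the title transcript, the 10 highest and 10 lowest ratios, the 5 most abundant listed at 0 in the other library, the 10 most abundant, the 3 longest and shortest, the 3 on either side of the filter, 2 per list and hosts of at least 3 members. Others, including the identical pairs, the members nearest Satb1, those over small RNA genes and the further members in listed hosts, were chosen after their values were seen, as were shared words of 30 bases. The closing section gives other pseudocounts and filters, centring, a 4-fold rule and other sets of transcripts. The sequence of 1 stretch of a member is not reported here.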

Additional observations from a re-analysis of the deposited data

How the results depend on the processing

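With 1 FPKM in place of 0.1 added, 25 members were 2-fold higher and 15 lower. With no filter there were 281 and 100 of 3728 transcripts, and the median abundance was 0.114 FPKM. With a filter of 1 FPKM there were 102 and 28, and under a 4-fold rule 24 and 16. Centred on the annotated median there were 81 higher and 74 lower, 52.3% higher in place of 78.9%, and the members' median log2 ratio turned from 0.28 to -0.0128. In the other settings tried, the counts stayed within 1.5 times, including 168 and 42 with overlapping assembled transcripts added, 142 and 33 without overlap of coding exons, 171 and 45 without copies, and 175 and 46 with names ending in os kept. Added after seeing the data, sums per gene name gave 165 and 39, and genes with a single listed transcript gave 150 and 34. Gm43541 kept a log2 ratio of 2.48 to 3.14. No paired analysis was possible because there was 1 library per group. FPKM without counts gives no interval, so differences of low members cannot be set against counting error.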
